A study of Homo sapiens with 6 samples.

Results

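The genes described here are 35 genes of protein folding and its stress responses, followed by RNA sequencing in HEK293A, a flat-growing subclone of HEK293, a cell line of human embryonic kidney origin. They were matched by symbol to a list that was drawn up with earlier results of these data known. The list holds 20 genes of the unfolded protein response and of folding, degradation and export at the endoplasmic reticulum (ER), and 15 heat shock and chaperone genes that work outside the ER. All 35 were found among the 60676 gene IDs of the count tables, each under 1 ID, and all 35 passed the filter on low counts. Of the 15 genes outside the ER, 13 encode proteins of the cytosol and nucleus, while HSPD1 and HSPE1 encode the mitochondrial chaperonin pair. The vehicle group was 3 libraries of cells given DMSO, and the compound group was 3 libraries of cells given VT01454 at 20 nM for 2 h; both groups are the same unmodified line, and the compound is known here only by its code name. Whether the 3 libraries of a group are separate cultures is not stated in the labels. The p-values therefore rest on a spread between libraries that may be technical. The series title places the compound in work on phosphoinositide transfer and the Hippo pathway, and the comparison shows here whether transcripts of the protein folding machinery differed after 2 h.

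Misfolded proteins in the ER are sensed by the membrane proteins IRE1, PERK and ATF6. IRE1 splices the XBP1 message, PERK slows translation and favours the factor ATF4, and ATF6 is cut into a transcription factor; together they raise ER chaperones and the genes that send misfolded proteins back to the cytosol for degradation. In the cytosol and nucleus the factor HSF1 is held inactive by chaperones and, when unfolded proteins draw these away, binds heat shock elements and drives HSP70 and HSP90 genes. Counts per gene do not show XBP1 splicing, translation or protein levels.

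Sequence elements known for these responses were looked for before annotated starts of the genes, as a description. The list was drawn up from genes known for these same responses, so matches in it are not an independent result. RefSeq windows (GRCh38.p14) were matched by symbol for 33 of the 35 genes, and the 250 bases before each annotated start were searched on both strands. A gene can have several annotated starts, and a match before any of them was counted, so a match can lie inside the gene. The printed site of HSP90AB1, for example, lies within the span of that gene, 44246166 to 44253888 on chromosome 6. The ER stress element, CCAAT and CCACG with 9 bases between them, was present in 7 of 19 ER genes with a window, in 0 of 14 heat shock genes and in 25 of 27305 genes in all (0.0916%). Its matches are printed 5′ to 3′ on the strand of the element, with the fixed letters in capitals and the spacer in lower case.
HSPA5, chr9:125241391-125241409, minus strand: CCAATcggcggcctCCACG
HSP90B1, chr12:103930216-103930234, plus strand: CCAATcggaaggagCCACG
HSP90B1, chr12:103930321-103930339, minus strand: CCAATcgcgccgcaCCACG
CALR, chr19:12938384-12938402, minus strand: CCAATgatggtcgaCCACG
CANX, chr5:179698778-179698796, plus strand: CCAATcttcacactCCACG
PDIA6, chr2:10812853-10812871, minus strand: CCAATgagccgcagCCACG
CRELD2, chr22:49918554-49918572, minus strand: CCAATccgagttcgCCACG
XBP1, chr22:28800603-28800621, minus strand: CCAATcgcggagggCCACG

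A shorter variant, ATTGG and CCACG with 1 base between them, was found in HERPUD1, SDF2L1 and HYOU1, and in 18 of 27305 genes in all (0.0659%); this motif was added after the sequences had been read. The heat shock element, GAA, TTC and GAA with 2 bases between neighbours, was present in 5 of 14 heat shock genes, in 0 of 19 ER genes and in 0.557% of all genes. Those 5 genes were HSPA8, HSP90AA1, HSP90AB1, HSPD1 and CHORDC1. The following matches, with the fixed letters again in capitals, show 1 site of each gene.
HSPA8, chr11:123062179-123062191, plus strand: GAAccTTCcaGAA
HSP90AA1, chr14:102087120-102087132, plus strand: GAAccTTCcgGAA
HSP90AB1, chr6:44247831-44247843, minus strand: GAAgcTTCcaGAA
HSPD1, chr2:197500068-197500080, minus strand: GAAagTTCtgGAA
CHORDC1, chr11:90223087-90223099, minus strand: GAAggTTCctGAA

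The 250 bases before the start of DNAJB9 and HERPUD1 are printed whole because these genes had the highest fitted log2 fold changes of the 35, beside HSPA5, the usual readout of ER stress. Capitals mark matches to the ER stress element, its shorter variant, TGACGTGG or ACGTG on either strand. ACGTG can lie inside TGACGTGG and can overlap the end of the other elements. The 250-base window of DNAJB9 held ACGTG matches only, that of HERPUD1 held ACGTG and the shorter variant, and that of HSPA5 held the ER stress element only. ACGTG is a common pentamer, present before 21.7% of all genes, 8 of 19 ER genes and 5 of 14 heat shock genes, so a match describes the letters and is not a site.
DNAJB9, chr7:108569624-108569873, plus strand: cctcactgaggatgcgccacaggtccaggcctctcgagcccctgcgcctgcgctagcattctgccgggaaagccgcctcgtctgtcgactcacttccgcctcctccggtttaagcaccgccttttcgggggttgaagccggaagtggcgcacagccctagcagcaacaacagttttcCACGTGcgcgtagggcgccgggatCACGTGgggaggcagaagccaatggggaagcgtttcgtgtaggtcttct
HERPUD1, chr16:56931892-56932141, plus strand: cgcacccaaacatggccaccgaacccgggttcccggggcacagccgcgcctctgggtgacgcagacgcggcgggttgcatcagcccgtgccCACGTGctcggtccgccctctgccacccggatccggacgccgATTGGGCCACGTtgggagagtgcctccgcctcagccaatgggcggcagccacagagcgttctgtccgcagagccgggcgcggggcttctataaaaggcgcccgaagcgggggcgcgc
HSPA5, chr9:125241344-125241593, minus strand: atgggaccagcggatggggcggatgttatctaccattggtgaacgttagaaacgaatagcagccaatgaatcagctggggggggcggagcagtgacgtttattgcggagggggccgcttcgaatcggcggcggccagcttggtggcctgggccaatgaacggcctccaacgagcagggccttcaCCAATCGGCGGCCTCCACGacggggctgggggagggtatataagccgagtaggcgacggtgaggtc

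Total counts ran from 19126039 to 28880374 per library. Levels are given in CPM, counts per 1000000 counts on library sizes scaled by the TMM method, as mean ± SD over 3 libraries; a level compared between genes is first divided by the gene's exonic length. Of the genes chosen to mark the line, VIM, KRT8, KRT18 and CDH2 stood at 113 CPM or more in every library, but PAX2 was at 0.245 to 0.708 CPM and LHX1 at 0 to 0.111 CPM. The leukocyte genes PTPRC and CD3E had 0 counts in every library, which allows up to 0.104 to 0.157 CPM, and the leukocyte, fibroblast or endothelial and squamous markers summed to 0.00275% to 0.00413% of the counts of a library. In bulk RNA, fewer cells of a type and less RNA per cell cannot be told apart. The vehicle libraries were less alike than the compound libraries: the chi-square per degree of freedom of a pair was 7.77 to 19.6 within vehicle, highest between vehicle libraries 2 and 3, and 2.02 to 2.77 within the compound group.

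After 2 h with VT01454, 1 of the 35 genes passed the test at an adjusted p below 0.05 in edgeR. DNAJB9, which encodes an ER co-chaperone of the HSP70 class protein BiP and is a known target of XBP1, rose 1.48-fold. The other 34 genes, among them the BiP gene HSPA5, the stress factor gene XBP1 and the major heat shock genes HSPA8, HSP90AA1 and DNAJB1, did not pass the test. Over all 15577 genes tested, 1.89% passed at an adjusted p below 0.05 in either direction and 1.27% passed as higher, so 1 of 35 is close to the share of all genes. By the log2 fold change of compound minus vehicle, 23 of the 35 lay above 0 and 12 below, with a median of 0.024. Of all 15577 tested genes 7539 lay above 0, with a median of -0.0073. Of the 8580 tested genes at or above the level of the lowest of the 35, 4615 lay above 0, with a median of 0.012.

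The intervals give the size of difference that this fit allows in most of these genes. They rest on the same spread between libraries as the p-values, which may be technical. The fit shares this spread between the groups, although the vehicle libraries were less alike. The 95% interval of the fitted difference lay within 1.5-fold either way for 34 of 35 genes, DNAJB9 being the exception, and within 1.3-fold for 33. Among the 8580 tested genes at or above the mean level of the lowest of the 35, 8373 had an interval within 1.5-fold and 7302 within 1.3-fold. In 6 of the 35 genes the libraries of the 2 groups did not overlap, 5 with the compound above and 1 with it below. Of all tested genes, 21.1% did not overlap (11.3% above and 9.84% below). Of the 8580 tested genes at or above the level of the lowest of the 35, 2016 did not overlap, 1262 above and 754 below.

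**Figure D1:**
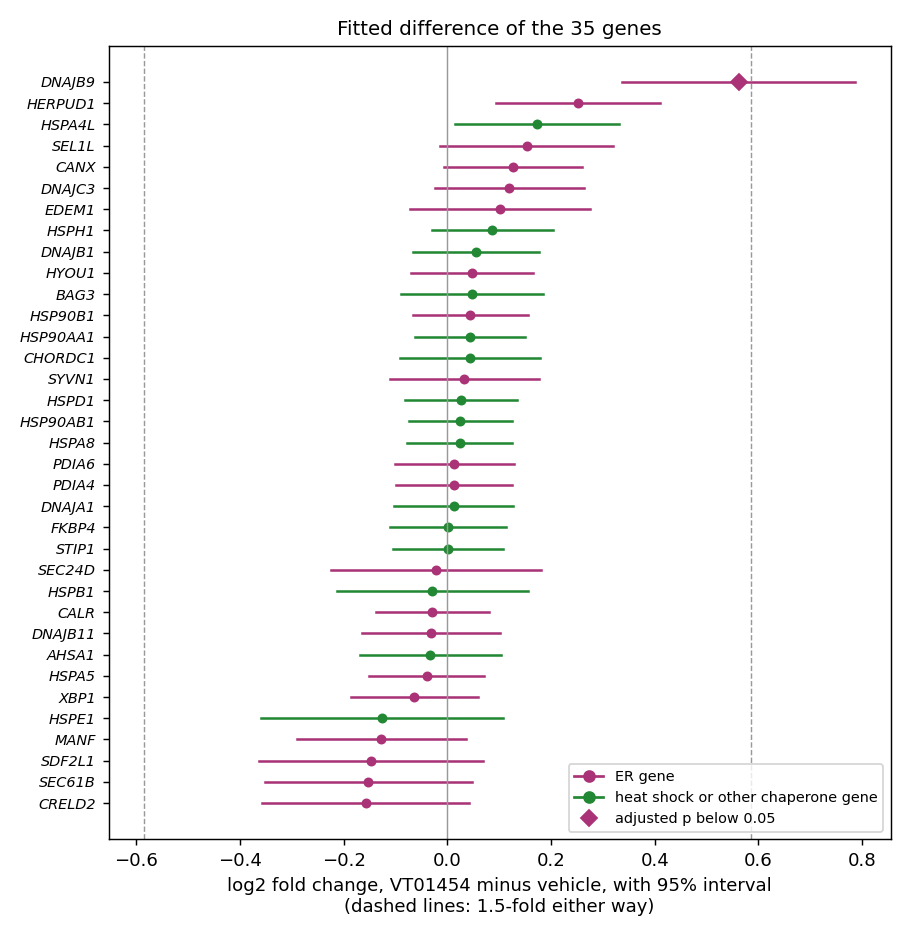
Fitted log2 fold change of each of the 35 genes (x axis, VT01454 minus vehicle, 3 libraries each), ordered by value, with its 95% interval as a bar and dashed lines at 1.5-fold either way. DNAJB9, drawn as a diamond, passed the test at 0.56, and its interval alone crosses a dashed line.

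The ER lumen runs an HSP70 cycle in which BiP, encoded by HSPA5, is served by J-domain co-chaperones and by the nucleotide exchange factor HYOU1. DNAJB9 (ENSG00000128590, chromosome 7, 108569568 to 108574850, hg38) was measured at 10.05, 11.5 and 13.1 CPM in the vehicle libraries and at 17.2, 16.5 and 17.6 CPM in the compound libraries. Every compound library was above every vehicle library. The vehicle mean was 11.5 ± 1.51 CPM and the compound mean 17.1 ± 0.519 CPM (SD, n = 3 each). The fitted difference was 0.56 ± 0.10 (log2, SE; edgeR adjusted p = 0.0140), with an interval of 1.26-fold to 1.72-fold. DNAJB9 was the least abundant of the 35 in CPM. The gene no longer passed when vehicle library 1 or a library of the compound group was left out (adjusted p = 0.0652 to 0.108), with log2 fold changes of 0.47 to 0.67 over all 6 omissions. Of the exonic length of DNAJB9, 6.45% is also exon of PNPLA8 or THAP5 on the opposite strand, and the strand setting of the counting is not given. PNPLA8, a phospholipase gene, also rose, from 20.4 to 25.5 CPM (0.32 ± 0.07, adjusted p = 0.0466), and THAP5 stood at 0.20 ± 0.08 (adjusted p = 0.257). The part of shared reads in the DNAJB9 result was not tested.

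HSPA5 itself, the most used marker of ER stress, was measured at 889, 950.0 and 901 CPM with vehicle and at 906, 870.1 and 889.8 CPM with the compound. The groups overlapped, and the fold change was 0.973 with an interval of 0.901 to 1.05 (adjusted p = 0.756). The co-chaperone gene DNAJC3, whose product p58IPK also restrains PERK, and HYOU1 had compound libraries that all lay above the vehicle libraries, but by little: 55.5 ± 3.47 against 60.3 ± 0.895 CPM for DNAJC3 and 179 ± 5.30 against 185 ± 3.78 CPM for HYOU1. Neither passed (adjusted p = 0.439 and 0.724). DNAJB11, an abundant J-protein of BiP, differed by -0.031 on the log2 scale. SDF2L1, which works with DNAJB11 to keep clients soluble, differed by -0.15 ± 0.10, and its values with the compound, 36.5 to 39.2 CPM, lay inside the vehicle range of 35.3 to 48.7 CPM.

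The folding enzymes and lectin chaperones of the ER stayed near their vehicle levels. HSP90B1, which encodes GRP94, the HSP90 of the ER, was at 1051 ± 42.1 CPM with vehicle and at 1084 ± 20.4 CPM with the compound. PDIA4 and PDIA6, protein disulfide isomerase genes, each differed by 0.013 on the log2 scale, and CALR, the gene of the soluble lectin chaperone calreticulin, by -0.029. The membrane-bound lectin chaperone gene CANX was measured at 1388, 1281 and 1515 CPM in vehicle and at 1518, 1501 and 1551 CPM with the compound. Vehicle library 3 reached into the range of the compound libraries, and the fold change was 1.09 (interval 0.996 to 1.20, adjusted p = 0.371). MANF, a small secreted protein that binds BiP, and CRELD2, an ER disulfide isomerase, are induced in ER stress, and here stood at -0.13 ± 0.08 and -0.16 ± 0.09 without passing (adjusted p = 0.471 and 0.461).

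Among genes of stress signalling and of ER-associated degradation, HERPUD1 had the second highest fitted log2 fold change of the 35. It encodes a membrane protein that gathers the HRD1 ubiquitin ligase complex, and its upstream sequence is the one shown above with ATTGGGCCACG. HERPUD1 was measured at 33.9, 39.5 and 36.1 CPM with vehicle and at 44.0, 44.1 and 42.1 CPM with the compound. The groups did not overlap, and the fold change was 1.19 with an interval of 1.07 to 1.33, but the gene did not pass (adjusted p = 0.124). It passed without vehicle library 2 (adjusted p = 0.0131), and with no filter on low counts (adjusted p = 0.0464).

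XBP1, which encodes the transcription factor made active by IRE1, was the 1 gene whose compound libraries all lay below vehicle. Its values were 112.6, 119 and 112.6 CPM with vehicle and 108, 109 and 112.4 CPM with the compound, so that the nearest libraries were almost level. The difference was -0.064 ± 0.06 (adjusted p = 0.636). SEL1L, the scaffold of the HRD1 complex, was measured at 91.7, 83.8 and 104.6 CPM and at 101.5, 108 and 103 CPM (0.15 ± 0.08, adjusted p = 0.391), with vehicle library 3 inside the compound range. SYVN1, which encodes the HRD1 ligase itself, differed by 0.033 and EDEM1, a lectin that hands glycoproteins to degradation, by 0.10. SEC61B, a subunit of the channel by which proteins enter the ER, stood at 64.4 ± 9.96 and 57.8 ± 0.312 CPM, and SEC24D, a cargo adaptor of the COPII coat, at 30.3 ± 3.79 and 29.9 ± 1.78 CPM. Neither passed (adjusted p = 0.481 and 0.933).

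**Figure D2:**
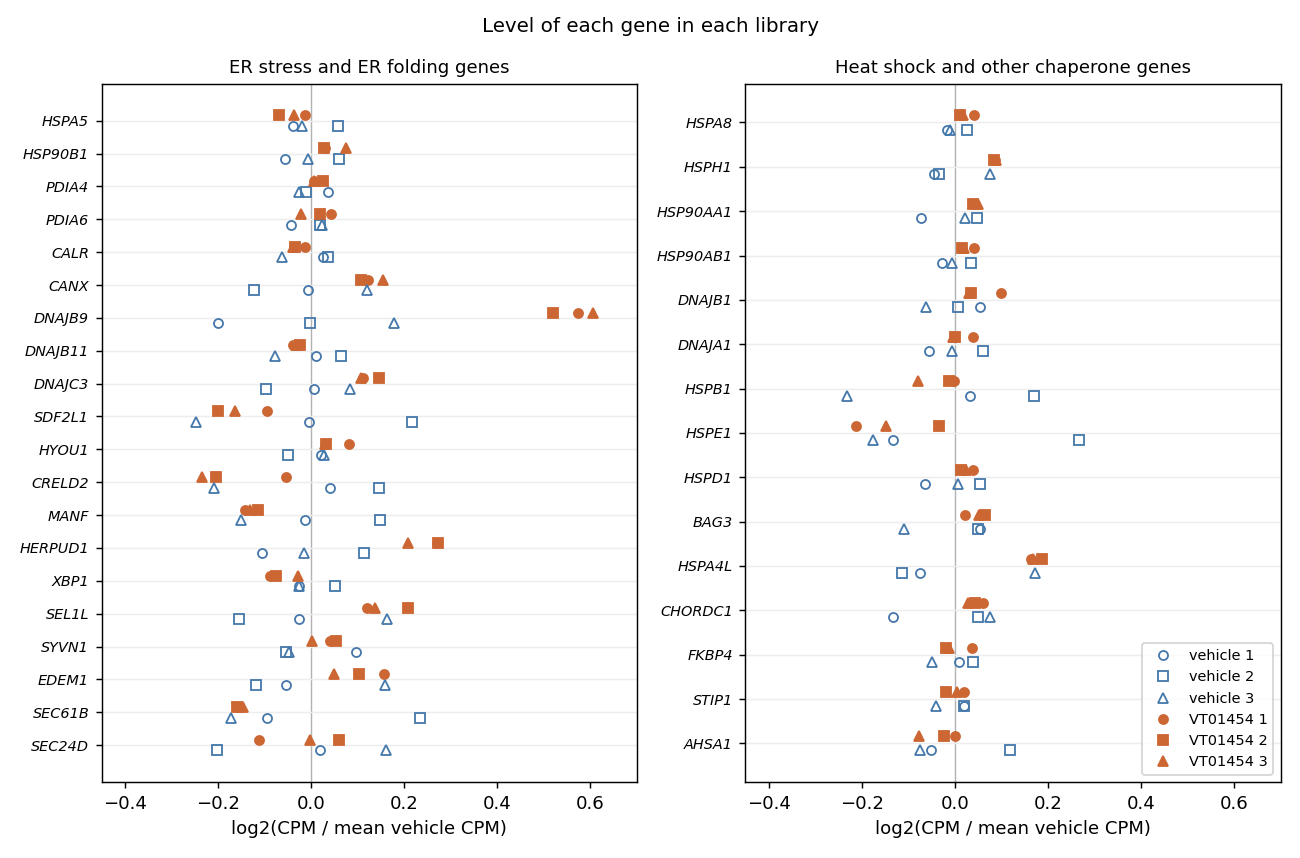
Level of each gene in each of the 6 libraries (x axis, log2 of CPM over the gene's mean vehicle CPM), with open blue symbols for vehicle and filled orange symbols for VT01454, and the same shape for the same replicate number. The compound libraries of DNAJB9 and HERPUD1 lie to the right of all 3 vehicle libraries, and in 15 of the 35 genes all orange symbols fall within the span of the blue ones.

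No heat shock or mitochondrial chaperone gene passed the test. The edgeR test called 0 of the 15 and DESeq2 also called 0; by edgeR, HSPA4L alone had an unadjusted p below 0.05, a limit that 14.4% of all tested genes met. Their median log2 fold change was 0.025, with values from -0.13 to 0.17.

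HSPA8, which encodes the constitutive cytosolic HSP70, was measured at 1771, 1824 and 1778 CPM with vehicle and at 1843, 1806 and 1813 CPM with the compound, a fold change of 1.02 with an interval of 0.948 to 1.09. The values of the groups are interleaved. The J-protein genes DNAJB1, one of the most inducible targets of HSF1, and DNAJA1 were also level: DNAJB1 was at 204, 197 and 188 CPM and at 210.3, 201 and 200.4 CPM (0.055 ± 0.06, adjusted p = 0.689), and DNAJA1 differed by 0.012. BAG3, an exchange factor that links HSP70 to autophagy and responds strongly to proteotoxic stress, was at 90.9 ± 5.75 and 93.9 ± 1.44 CPM.

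The HSP110 genes HSPH1 and HSPA4L, exchange factors and holdases of the HSP70 cycle, had the highest fitted values of the 15. HSPA4L was measured at 133, 129.6 and 158 CPM with vehicle and at 157, 159.8 and 158 CPM with the compound. Vehicle library 3 lay within the compound range, while vehicle libraries 1 and 2 were lower, and the gene did not pass (0.17 ± 0.07, adjusted p = 0.304). HSPH1 was measured at 408, 411 and 443 CPM and at 447, 446 and 447 CPM, so all compound libraries were above, by 0.087 ± 0.05 (adjusted p = 0.490).

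The HSP90 genes were the most abundant of the list. HSP90AB1, the constitutive form, stood at 1093 CPM per kilobase of exonic length in vehicle and HSP90AA1, the stress-inducible form, at 748 on the same scale, ahead of CALR at 449, HSPD1 at 436 and HSPA8 at 369. DNAJB9 and SEC24D were lowest on this scale, at 4.07 and 3.05. HSP90AA1 was measured at 3730.0, 4057 and 3983 CPM with vehicle and at 4039, 4031 and 4063 CPM with the compound (0.044 ± 0.05, adjusted p = 0.719), and vehicle library 2 lay inside the compound range. HSP90AB1 had a fold change of 1.02 with an interval of 0.950 to 1.09. Of the HSP90 co-chaperones, STIP1, the adaptor that joins HSP70 to HSP90, and the immunophilin gene FKBP4 differed by 0.0013 and 0.0021. AHSA1, which stimulates the HSP90 ATPase, differed by -0.033, and CHORDC1, an HSP90 partner that is itself heat inducible, by 0.044.

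The mitochondrial chaperonin genes HSPD1 (HSP60) and HSPE1 (HSP10) lie head to head on chromosome 2. HSPD1 was measured at 1773, 1924 and 1861 CPM with vehicle and at 1904, 1869.5 and 1885 CPM with the compound, a fold change of 1.02 with an interval of 0.945 to 1.10. HSPE1 was measured at 33.4, 44.1 and 32.4 CPM and at 31.7, 35.8 and 33.1 CPM, with vehicle library 2 apart from the other 5 (-0.13 ± 0.11, adjusted p = 0.626). The level of HSPE1 is uncertain. Its name is borne by 26 annotated pseudogenes, 8 of them with counts that add up to 7.31% of the sum of gene and pseudogenes. Of the exonic length of HSPE1, 9.71% belongs also to the readthrough gene HSPE1-MOB4 on the same strand. A further overlap, 14.2% of that length, is with exons of HSPD1 on the opposite strand, and the strand setting of the counting is not given. The part of shared reads in the HSPE1 counts was not tested. Pseudogenes were sought only as a gene symbol followed by P and a number. For the other 34 genes the share of counts in pseudogenes so named was at most 0.889%. Pseudogenes named in another way were not counted, so a low share does not show that a gene is free of pseudogene reads. This holds for HSP90AA1, HSP90AB1 and HSP90B1, for which the search found 0 pseudogenes. The small heat shock gene HSPB1 was at 164 ± 22.6 and 160.4 ± 4.58 CPM.

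**Figure D3:**
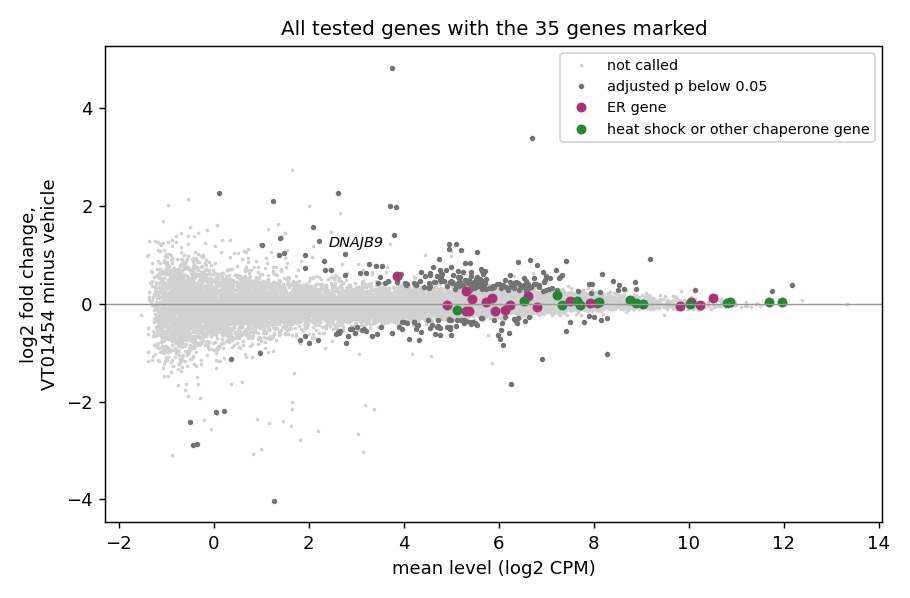
Log2 fold change of all 15577 tested genes (y axis, VT01454 minus vehicle) against mean level (x axis, log2 CPM), with the ER genes in purple and the heat shock and other chaperone genes in green. Genes that passed are dark grey; the 35 genes lie along 0 across the upper part of the range of levels, DNAJB9 being the one that passed.

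The wider pathways were read from 7 further lists with 146 genes, 138 of them tested. Of these, 2 passed as higher and 0 as lower, again near the background of 1.27% higher and 0.616% lower. Their median log2 fold change was 0.0075. DESeq2 gave an adjusted p for 130 of them and called 5 higher and 0 lower, where it called 2.52% of all genes higher. Of those 5, 4 were sensors or factors of the unfolded protein response. Before adjustment 14 of the 138 had an edgeR p below 0.05, against 14.4% of all tested genes. EDEM3, a mannosidase-like protein that commits ER glycoproteins to degradation, was measured at 55.7, 47.0 and 58.2 CPM with vehicle and at 67.8, 71.2 and 75.4 CPM with the compound. It rose 1.33-fold (0.41 ± 0.08, adjusted p = 0.0226). PPP1R15A, which encodes the phosphatase adaptor GADD34 that restores translation after PERK signalling, was measured at 66.8, 68.1 and 63.8 CPM and at 82.2, 81.1 and 79.9 CPM, and rose 1.22-fold (0.29 ± 0.06, adjusted p = 0.0255). In both genes all compound libraries lay above vehicle. Neither passed when vehicle library 1 or a compound library was left out, with an adjusted p up to 0.168 for EDEM3 and 0.177 for PPP1R15A, and then 0 of the 138 genes passed. Without vehicle library 3, 16 of the 138 were higher and 3 lower, where 7.36% of all genes were higher and 4% lower.

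Among the 14 tested sensors and factors of the unfolded protein response, PPP1R15A rose and the rest did not pass in edgeR. Of the 14, 12 had a log2 fold change above 0, with a median of 0.082, where 7539 of all 15577 tested genes lay above 0. In 5 of the 14 the compound libraries all lay above vehicle, where 11.3% of all tested genes did. An unadjusted edgeR p below 0.05 was found for 5 of the 14, against 14.4% of all tested genes. The number called was sensitive to the fit: DESeq2 called 4 of 13 higher and edgeR with no filter on low counts called 4 of 15, where 1.63% of all genes were higher, in both cases EIF2AK3, CREBRF, PPP1R15A and PPP1R15B. Offsets for exonic length gave 5 of 14, these and ATF4, where 2.11% of all genes were higher, and leaving out vehicle library 1 or a compound library gave 0. EIF2AK3, the PERK gene, was measured at 13.9, 11.9 and 13.4 CPM with vehicle and at 17.0, 17.8 and 16.5 CPM with the compound (0.38 ± 0.09, edgeR adjusted p = 0.0553, DESeq2 adjusted p = 0.0412). PPP1R15B, the constitutive counterpart of PPP1R15A, stood at 0.26 ± 0.07 (adjusted p = 0.117). CREBRF, a regulator of the CREB3 factor, had the highest value of the list at 0.60 ± 0.17 (adjusted p = 0.127), with at most 10.6 CPM in a vehicle library and 11.8 to 12.2 CPM with the compound. In all 3 genes the groups did not overlap. ATF4 differed by 0.15 ± 0.06, the IRE1 gene ERN1 by 0.051, ATF6 by 0.060 and DDIT3, the proapoptotic factor CHOP, by -0.052; these 4 genes, PPP1R15B and CREBRF were chosen after their values were seen. Of 21 further genes of ER-associated degradation EDEM3 rose, and RNF139, a ubiquitin ligase of the ER membrane, stood at 0.20 ± 0.06 (adjusted p = 0.137). None of 27 other ER folding enzymes passed in the reported fit. HSPA13, an HSP70 of the ER, was at 0.26 ± 0.08 (edgeR adjusted p = 0.132) and the prolyl isomerase gene FKBP14 at 0.22 ± 0.07 (edgeR adjusted p = 0.138). With offsets for exonic length RNF139 and HSPA13 passed (edgeR adjusted p = 0.0293 and 0.0495), and HSPA13 also with no filter on low counts (edgeR adjusted p = 0.00892). None of 27 translocon and COPII genes passed in the reported fit. SEC63, a J-protein of the translocon, stood at 0.15 ± 0.06 (edgeR adjusted p = 0.291) and SEC24B at 0.22 ± 0.10 (edgeR adjusted p = 0.355). Without vehicle library 3 both passed (edgeR adjusted p = 0.0171 and 0.0131). In that fit 5 of the 27 were higher and 1 lower, where 7.36% of all genes were higher and 4% lower.

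On the cytosolic side no further gene passed in the reported edgeR fit or in DESeq2. EdgeR tested 25 HSP70 system genes and heat shock factors, 11 HSP90 co-chaperones, and 13 subunits of the chaperonin TRiC and of prefoldin. DESeq2 gave an adjusted p for 20, 10 and 13 of them. HSF2, a heat shock factor gene, was at 0.19 ± 0.06 (edgeR adjusted p = 0.177). It passed with offsets for exonic length (edgeR adjusted p = 0.0387), where 2.11% of all genes were higher. HSF4, at 1.20 CPM in vehicle and 0.702 CPM with the compound, was at -0.77 ± 0.27 (edgeR adjusted p = 0.222). Of the exonic length of HSF4, 31.4% is also exon of AC074143.1 on the same strand. TTC4 and CDC37L1, both HSP90 partners, stood at -0.63 ± 0.31 and -0.18 ± 0.09 (edgeR adjusted p = 0.375 and 0.425). TTC4 had 14 to 31 counts in a library, and 52.4% of its exonic length is also exon of MROH7-TTC4 on the same strand. The prefoldin genes PFDN5 and PFDN2 were at -0.099 and -0.085 (edgeR adjusted p = 0.535 and 0.665). The inducible HSP70 gene HSPA1A, the classical heat shock readout, could not be used: it had 2 to 4 counts in each library. It lies in a stretch of chromosome 6 (29000000 to 34000000, hg38) where 83.0% of 182 protein-coding genes had a mean below 20 counts, against 37.0% of the other 859 of that chromosome. The same held for HSPA1L, RNF5, PFDN6 and ATF6B there, while HSPA1B, the sixth listed gene of the stretch, had 28 to 54 counts. ATF6B had 1 to 4 counts in 5 libraries and 89 in compound library 1. None of the 35 genes lies in this stretch, and the cause of the low counts was not tested. HSPA1B was measured at 1.32, 1.77 and 1.37 CPM with vehicle and at 1.90, 1.57 and 1.68 CPM with the compound, so the groups overlapped. HSPA6, an HSP70 gene on chromosome 1, had 13, 20 and 15 counts with vehicle and 18, 7 and 9 counts with the compound.

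The 35 genes varied more among the vehicle libraries than among the compound libraries. In all 35, the highest vehicle library exceeded the lowest by more than the highest compound library exceeded the lowest compound library, and the same was true of 84.2% of the 8580 tested genes of like level. The median of this range was 0.149 on the log2 scale in vehicle and 0.048 with the compound for the 35 genes, and 0.206 and 0.081 for those 8580. Vehicle libraries 2 and 3 differed along exonic length. SDF2L1, SEC61B, HSPB1 and HSPE1, the shortest of the 35 by exonic length, were 0.40 to 0.46 higher on the log2 scale in vehicle library 2 than in library 3. SEC24D, SEL1L and HSPA4L, 3 of the 4 longest, differed by -0.36 to -0.29, and CHORDC1, the other of those 4, by -0.027. Across the 35 genes the Spearman correlation of exonic length with this library difference was -0.75, and over the 8580 genes it was -0.61; genes share their libraries here, so these are descriptions with no test. The compound-minus-vehicle log2 fold change of the 35 genes also went with exonic length, with a Spearman correlation of 0.55. It was not computed over the other tested genes, so it is not shown to be particular to the 35. For the 35 genes the fold change was split at their median length. The median log2 fold change was -0.029 in the 17 shorter genes and 0.044 in the 18 longer ones.

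**Figure D4:**
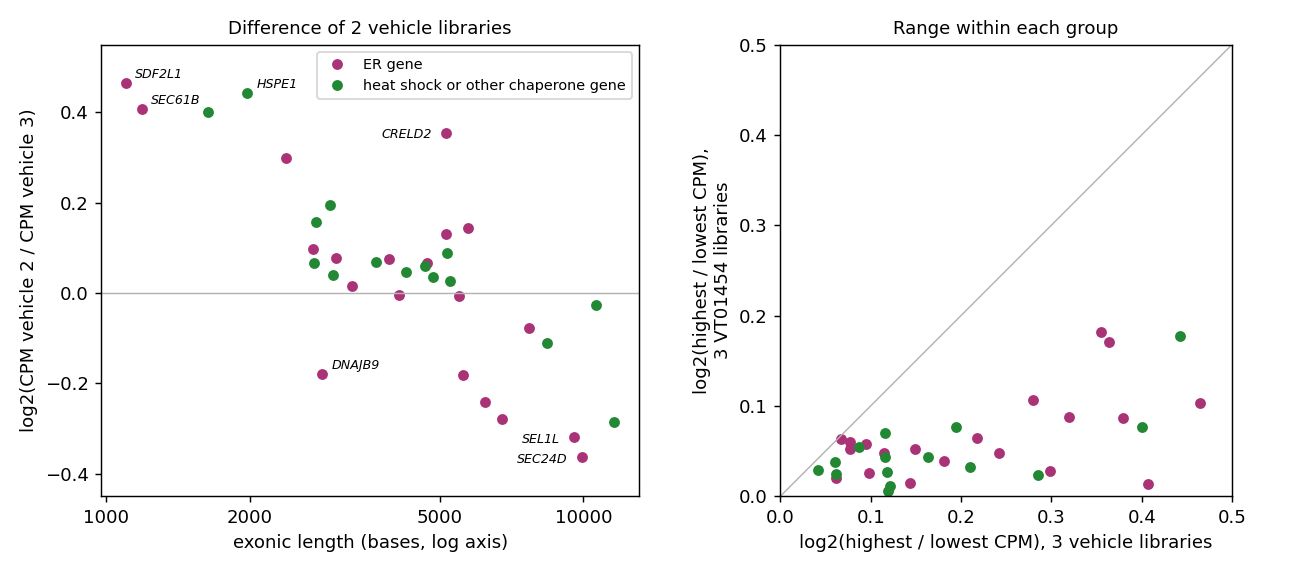
Left, log2 ratio of CPM in vehicle library 2 over vehicle library 3 (y axis) against exonic length in bases (x axis, log scale) for the 35 genes. Right, the log2 ratio of highest to lowest CPM within the 3 compound libraries (y axis) against the same in the 3 vehicle libraries (x axis); all 35 points lie under the diagonal.

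Which genes passed differed with the vehicle library that was left out. Without vehicle library 3, 4 of the 35 were higher, namely CANX (0.19), DNAJB9 (0.67), SEL1L (0.24) and HSPA4L (0.27), and 3 were lower, namely SDF2L1 (-0.26), CRELD2 (-0.26) and MANF (-0.20), while 1170 genes (7.36%) were higher and 636 (4%) lower over all genes. Without vehicle library 2 the genes that passed were DNAJB9 and HERPUD1, where 1.6% of all genes were higher, and none of the 35 passed when vehicle library 1 or a compound library was left out. With an offset for exonic length in each library, chosen after the data had been seen, DNAJB9 was the one that passed (0.60, adjusted p = 0.00345), and the values of SDF2L1 and SEC61B went from -0.15 each to -0.069 and -0.075. The 20 ER genes together took 0.601% to 0.611% of all counts in each library and the 15 other genes 1.42% to 1.48%, with both extremes of the latter in vehicle libraries.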

How the data were processed

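Raw read counts per Ensembl gene were deposited by the authors as 1 table per sample, with no normalization; per the submitters' processing notes the tools include HISAT2 2.2.1 and HTSeq 0.9.1 and the build is hg38. For the annotation release, strand setting and multiply mapped reads: not given in the sources used here. Symbols were matched to 60357 of 60676 IDs, and GENCODE 29 on the same build gave coordinates and exonic length. Library totals of 19126039 to 28880374 make 1 count worth 0.0346 to 0.0523 CPM.

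The test was edgeR 4.0.16 (R 4.3.3; filterByExpr, TMM, robust quasi-likelihood F-test, two-sided) of 3 compound against 3 vehicle libraries, with Benjamini-Hochberg adjustment over all 15577 tested genes and calls at an adjusted p below 0.05. The SE is the log2 fold change over the square root of F, and 95% intervals use the t quantile of the fit. Groups came from the sample titles. The code was tested on simulated data. The 35 genes and the further lists were chosen with earlier results of these data known. Values in every library are given for called genes, for the 4 smallest p of each of the 2 sets, and for HSPA5, XBP1, HERPUD1, HSPA8, HSP90AA1, DNAJB1 and HSPD1; of each further list, called genes and the 2 of smallest p are named. Alternatives were DESeq2 1.42.0, its size factors in edgeR, library totals alone, no filter, a mean of 1 CPM, the replicate block, leaving out each library and, added after the data were seen, offsets for exonic length (lowess, span 0.5, length known for 99.3% of tested genes). Protein sequences were not used here. The promoter windows are those of RefSeq on GRCh38.p14.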

Additional observations from a re-analysis of the deposited data

How the results depend on the processing

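Of the ER genes, 1 was higher in the reported fit and with DESeq2, its size factors, library totals, a filter at 1 CPM and length offsets, and 2 with no filter; leaving out 1 library gave 0 to 3 higher and 0 to 3 lower. Of the heat shock genes, leaving out 1 library gave 0 to 1 higher, and every other alternative gave 0 in either direction. Further pathway genes called higher numbered 2 in the reported fit, 6 with no filter, 5 with DESeq2, 9 with length offsets and 0 to 16 without 1 library, with 0 to 3 lower. Over all genes, 198 higher and 96 lower became 508 and 205 with no filter, 328 and 192 with length offsets, 73 to 1170 and 20 to 636 without 1 library, and 298 higher with DESeq2. The cause of these moves was not tested.

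Signs near 0 turned with library totals for PDIA4 (-0.011), PDIA6 (-0.010), DNAJA1 (-0.011), FKBP4 (-0.021) and STIP1 (-0.022), and the ER median became -0.010, where the median of all genes moved to -0.031. With length offsets they turned for CALR (0.017), HSPB1 (0.043), CHORDC1 (-0.025), FKBP4 (-0.0032) and AHSA1 (0.0091). Leaving out 1 library gave ranges that crossed 0 for PDIA4 (-0.0021 to 0.031), PDIA6 (-0.0073 to 0.034), DNAJB11 (-0.071 to 0.0036), SEC24D (-0.11 to 0.066), DNAJA1 (-0.014 to 0.044), HSPB1 (-0.13 to 0.066), HSPE1 (-0.21 to 0.026), HSPD1 (-0.0039 to 0.055), BAG3 (-0.0075 to 0.076), CHORDC1 (-0.018 to 0.082), FKBP4 (-0.024 to 0.023), STIP1 (-0.020 to 0.016), AHSA1 (-0.071 to 0.031) and PFDN2 (-0.16 to 0.018). None of these genes passed in the reported fit.

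The replicate numbers did not pair the libraries: deviations of same-numbered libraries correlated at -0.070, 0.028 and -0.014, and not every library correlated best with its own number. With the replicate block the ER genes again had 1 higher and 0 lower, and the heat shock genes 0.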
